A study of Mus musculus with 17 samples.

Results

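The 37 genes of the mouse mitochondrial genome were followed through all libraries of a bone marrow RNA-seq series. They were taken as every row of the count tables whose symbol starts with mt-, which gave 37 of 56305 rows: 2 ribosomal RNAs (mt-Rnr1 and mt-Rnr2), 13 mRNAs and 22 transfer RNAs. In GRCm38 they lie on chrM between positions 1 and 15422, with 28 annotated on the plus strand and 9 on the minus strand, and the minus-strand genes are mt-Nd6 and 8 tRNAs. The series asked what changes in transcription when Mt1, which encodes the zinc- and copper-binding protein metallothionein 1, is reduced with CRISPR-Cas9 in acute myeloid leukemia (AML) of C57BL/6 mice. All libraries came from bone marrow of the genotype Dnmt3aR878H/+;Npm1cA/+, a heterozygous mutation of the DNA methyltransferase gene Dnmt3a together with a heterozygous mutant allele of the nucleophosmin gene Npm1. The 8 control libraries carried these alleles alone, and the 9 Mt1ko libraries carried them with the Mt1 knockdown. Sex and age of the animals, the guides and the way Cas9 was delivered were not given in the sources used here.

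Mitochondrial DNA is transcribed from both strands into long RNAs that span most of the circle. The tRNAs stand between most of the rRNA and mRNA genes and are cut out by dedicated enzymes, which frees the RNAs on either side. The 2 rRNAs build the mitochondrial ribosome. It translates the RNAs of the 13 protein-coding genes, each called an mRNA here whether or not it lies on an RNA of its own. Their products are subunits of respiratory complexes I (the Nd genes), III (mt-Cytb) and IV (the Co genes) and of ATP synthase (the Atp genes). All other proteins of the mitochondrion, including those of its ribosome and its RNA polymerase, are encoded in the nucleus.

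Several mitochondrial genes have near-identical copies in the nuclear genome, and the sequences below show how little separates them. A block on the minus strand of chr1:24611535-24616197 holds 7 annotated pseudogenes that match chrM:6390-11042. Of these, 5 matched the mitochondrial gene without a mismatch and 2 with 1 mismatch each. All sequences are 5′ to 3′ from the GENCODE vM21 transcripts of GRCm38. The first lines show the only mismatches found, in capitals, at the start of mt-Nd3 (chrM:9459-9491) and inside mt-Co1 (chrM:6390-6423). Counted from 1 at the 5′ end of the mitochondrial gene, the substitution is T3C in Gm28438 and A1066T in Gm29216.
mt-Nd3: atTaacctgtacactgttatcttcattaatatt
Gm28438: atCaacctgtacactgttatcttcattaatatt
mt-Co1: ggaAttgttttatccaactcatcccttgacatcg
Gm29216: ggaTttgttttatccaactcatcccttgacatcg
The next lines show 3′ ends, because there the identical copies differ from the genes only by stopping earlier. Capitals mark the bases of the mitochondrial gene that the annotated copy lacks.
mt-Co2: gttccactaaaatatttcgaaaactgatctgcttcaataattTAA
Gm28661: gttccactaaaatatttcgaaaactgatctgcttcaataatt
mt-Atp6: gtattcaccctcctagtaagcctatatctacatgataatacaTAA
Gm10925: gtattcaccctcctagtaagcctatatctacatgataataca
mt-Co3: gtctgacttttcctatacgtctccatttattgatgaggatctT
Gm28437: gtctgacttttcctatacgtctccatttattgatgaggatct
mt-Nd4l: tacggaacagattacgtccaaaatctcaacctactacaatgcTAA
Gm10222: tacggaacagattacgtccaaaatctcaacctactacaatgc
The annotated mt-Co3 ends on a single T, and its stop codon is completed by polyadenylation of the RNA. A read from the shared part of such a pair can be assigned to either row, so the split between the rows carries no measurement of which genome was transcribed.

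The deposited data were whole-number counts per gene in 17 libraries, which the labels call technical replicates, and in 6 sums of them that the authors also deposited. Control libraries 1-3, 7-9 and 14-15 and Mt1ko libraries 4-6, 10-12 and 16-18 each form 1 summed sample. Library totals lay between 27124722 and 38645072 counts, and levels are given as counts per 1000000 of that total (CPM). Whether the 6 sums stem from different animals is not stated in the labels, so the p-values describe only the variation among these sums, which may be technical. Mt1 itself was at 347.5 to 471.3 CPM in the control libraries and at 41.8 to 87.2 CPM in the Mt1ko libraries other than library 6, which had 326.2 CPM against its label. Of the 17 monocyte and macrophage markers listed for the leukemic marrow, 11 reached 10 CPM in the controls. Libraries 10 to 12 lay outside the range of the other 14 in several of the values described here, and the comparison of Mt1ko with control is also given without their sum.

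Mitochondrial rRNA was the largest class, with 51561776 of the 58413953 counts on the 37 genes, against 6852172 for the mRNAs and 5 for the tRNAs. In the 8 control libraries the 2 rRNAs took 4.67% to 11.2% of all counts, with a median of 5.85%. The 6 Mt1ko libraries of the sums 4-6 and 16-18 ranged from 4.58% to 6.16%. Libraries 10, 11 and 12 were at 26.3%, 21.9% and 30.2%, above all other libraries. The next highest were control libraries 9 and 8, at 11.2% and 8.77%, which belong to 1 sum with library 7 at 6.03%. Wilson 95% intervals of these shares reached at most 0.0167 percentage points to either side and cover counting error only.

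The mRNAs were also highest in libraries 10 to 12, by a smaller margin, and the order of the other libraries differed: library 15 came next at 1.50%, and library 7 was the lowest of all. Their summed share was 0.884% to 1.50% in the controls, 0.952% to 1.25% in the Mt1ko libraries other than 10 to 12, and 1.92%, 1.79% and 2.02% in libraries 10, 11 and 12. The ratio of rRNA to mRNA counts, which does not depend on the library total, was 4.20 to 5.02 in 11 libraries. It was 6.83, 7.50 and 8.87 in control libraries 7, 8 and 9 and 13.7, 12.2 and 14.9 in libraries 10, 11 and 12. This ratio followed the summed samples: all 3 libraries of each of these sums were above every library of the remaining 4 sums. The mRNA values here count the mt- rows alone and leave out the counts on the nuclear copies. With them added, the mRNA share was 2.27% to 2.49% in libraries 10 to 12 and 1.11% to 1.88% in the other 14. The ratio was then 9.62 to 12.1 in libraries 10 to 12 and 3.36 to 7.09 in the other 14. The part of any removal of rRNA during library preparation in these shares and ratios was not tested.

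**Figure D1:**
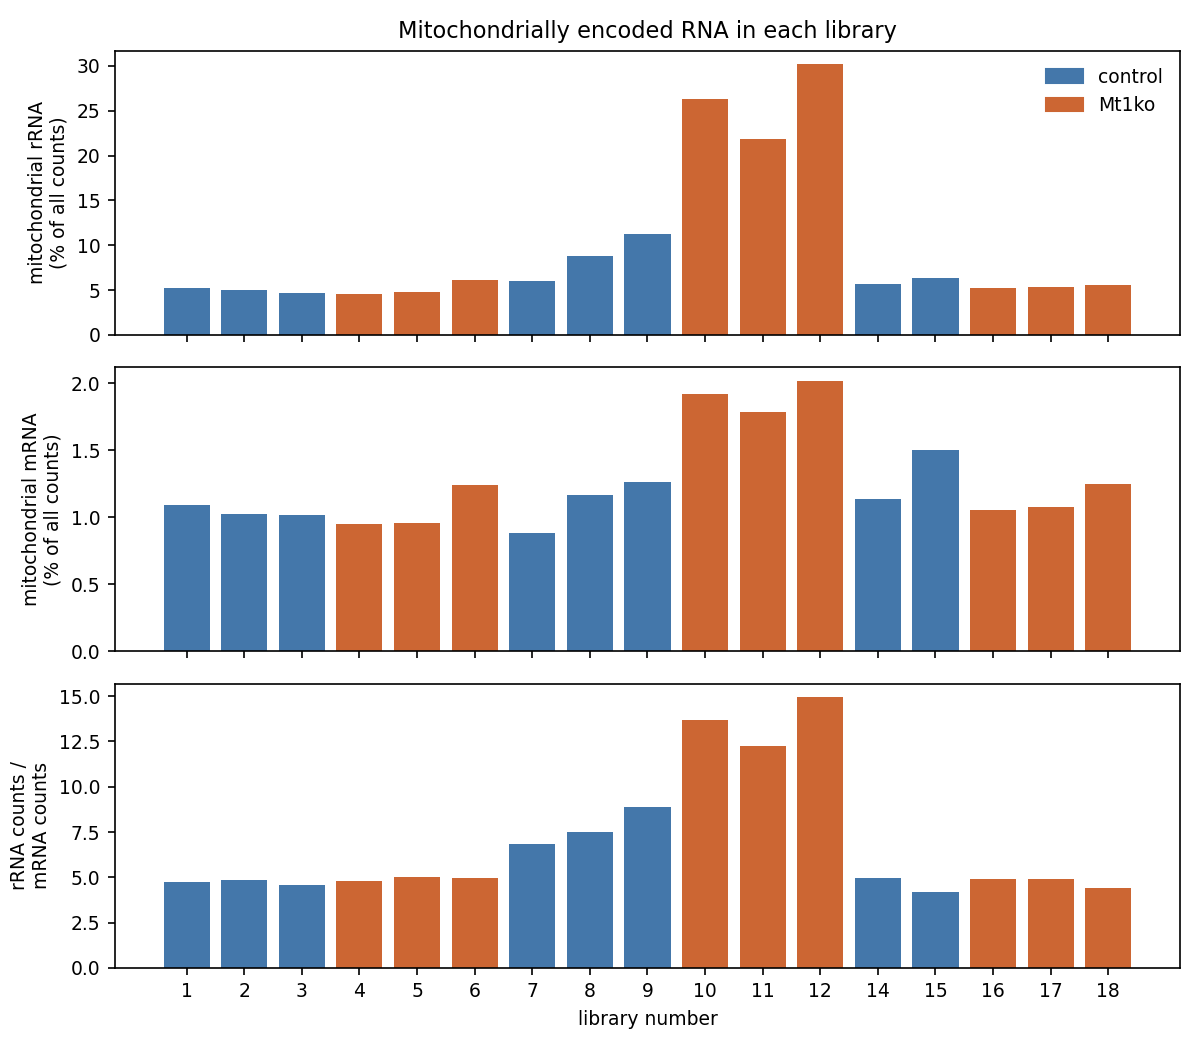
Share of mitochondrial rRNA and of mitochondrial mRNA in all counts (%), and rRNA counts divided by mRNA counts, for each of the 17 libraries, with 1 bar per library coloured by group. The mRNA counts are those of the mt- rows alone, without the nuclear copies. Libraries 10 to 12 are highest in all 3 panels, with 21.9% to 30.2% rRNA, and libraries 7 to 9 follow in the ratio, at 6.83 to 8.87.

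The library labels carry a second index sequence that splits the libraries into 3 sets, and the group difference was read within them. With the first index, mitochondrial rRNA was 5.93% ± 1.67 of counts in control (SD, n = 5 libraries) and 5.19% ± 0.850 in Mt1ko (SD, n = 3). With the second index it was 7.73% ± 3.04 in control (n = 3) and 20.9% ± 11.0 in Mt1ko (n = 4), where 3 of the 4 Mt1ko libraries are 10 to 12 and library 16 had 5.20%. The set with the third index held only Mt1ko libraries 17 and 18, at 5.32% and 5.51%. With the first index, the Mt1ko libraries all belong to sum 4-6, with library 6 among them, and the control libraries to sums 1-3 and 7-9. The SDs are over libraries that the labels call technical replicates, not over separate samples.

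The small rRNA gene mt-Rnr1 (chrM:70-1024) encodes the 12S rRNA of the small ribosomal subunit. It was at 13132 to 34194 CPM in the controls (median 16214) and at 11869 to 17311 CPM in the 6 Mt1ko libraries outside 10 to 12. Libraries 10, 11 and 12 held 80722, 63637 and 93175 CPM. The large rRNA gene mt-Rnr2 (chrM:1094-2675), which encodes the 16S rRNA, was at 33525 to 78072 CPM in the controls (median 42288) and at 182378, 155129 and 208660 CPM in libraries 10, 11 and 12. For both genes these 3 libraries lay above the other 14, without overlap. The count ratio of mt-Rnr2 to mt-Rnr1 was 2.24 to 2.44 in libraries 10 to 12 and 2.28 to 2.89 in the other 14, so the ranges overlapped.

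Levels of different genes were compared per kilobase of annotated gene, in control samples, as the mean CPM per kb ± SD over 3 sums. The copies' counts were added where a copy covers nearly the whole gene. The rRNAs led with 29145 ± 7764 CPM per kb for mt-Rnr2 and 19216 ± 5944 for mt-Rnr1, and their ranges overlapped. Among the mRNAs mt-Co1 (chrM:5328-6872), the catalytic subunit of complex IV, was highest at 3275 ± 561, followed by mt-Atp6 with Gm10925 at 2224 ± 125. These 2 did not overlap with each other or with the next gene. The per-kb values of the mRNA genes spanned 18.5-fold. The part of gene length, gene overlap and read assignment in the per-kb values was not tested. Nor was that of any removal of rRNA during library preparation in the rRNA values. The per-kb values are therefore not measured amounts of separate RNAs.

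The middle of the order was formed by mt-Cytb (chrM:14145-15288), the cytochrome b of complex III, at 1418 ± 170 CPM per kb, mt-Co2 with Gm28661 at 1332 ± 329 and mt-Nd5 (chrM:11742-13565) at 1166 ± 113, and each neighbour in this run overlapped. The complex I genes mt-Nd1 (chrM:2751-3707) at 1002 ± 79.1, mt-Nd4 (chrM:10167-11544) at 702 ± 86.6 and mt-Nd4l with Gm10222 at 676 ± 46.6 came next, and mt-Nd1 was clear of both its neighbours. They were followed by mt-Co3 with Gm28437 at 620 ± 107 and mt-Nd2 (chrM:3914-4951) at 485 ± 67.3, and the ranges overlapped from mt-Nd4 to mt-Nd2. The lowest 3 were mt-Atp8 (chrM:7766-7969) at 206 ± 15.4, mt-Nd3 with Gm28438 at 177 ± 31.5 and mt-Nd6 (chrM:13552-14070) at 177 ± 26.9, with overlapping neighbours.

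Some mitochondrial genes overlap, such as mt-Nd4l and mt-Nd4 by 7 bases. The genes mt-Atp8 and mt-Atp6 share 43 bases (chrM:7927-7969), where a read cannot be assigned to 1 of them by sequence. The copy Gm10925 matches this stretch as well. The window chrM:7897-7999 shows this shared stretch in capitals, beginning with the start codon of mt-Atp6.
mt-Atp8 and mt-Atp6: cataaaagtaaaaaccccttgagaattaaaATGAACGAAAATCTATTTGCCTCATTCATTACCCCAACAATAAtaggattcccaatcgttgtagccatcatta
The gene mt-Nd6, the only mRNA on the minus strand, overlaps the end of mt-Nd5 by 14 bases. The library kit marks strand, but the strand setting of the counting was not given in the sources used here, so reads from RNA opposite mt-Nd6 cannot be told apart from its own.

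Counts on the genes with chromosome 1 copies depended on which row received them. Over all libraries, the row of mt-Co2 (chrM:7013-7696), the copper-binding subunit of complex IV, held 0 counts. Its copy Gm28661 covers 99.6% of the gene without a mismatch and held 19739 to 51472 counts in every library. The opposite case was mt-Nd4, whose copy Gm28439 matches 63.6% of it without a mismatch and held 0 counts in all 17 libraries. Thus the identical sequence was counted wholly on the copy for mt-Co2 and wholly on the mitochondrial row for mt-Nd4.

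The other pairs were split unevenly, and the split changed from library to library. For mt-Atp6 (chrM:7927-8607), a subunit of the proton channel of ATP synthase, the copy Gm10925 took 94.1% of the pair's counts over all libraries. The row mt-Atp6 held 0 counts in libraries 1, 8, 10, 11 and 17, and 32590 counts in library 12, where the copy's portion was 60.0%. For mt-Co3 (chrM:8607-9390), the copy Gm28437 took 95.1%, and the mitochondrial row held fewer than 10 counts in 14 libraries against 8999 in library 7, 3924 in library 5 and 1117 in library 18. For mt-Nd4l (chrM:9877-10173), the copy Gm10222 took 88.2%, with 5257 counts on the mitochondrial row in library 10 and 0 in libraries 11 and 12.

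The gene mt-Nd3 (chrM:9459-9806) was divided more evenly over all libraries, with 32.2% of its pair on Gm28438, and in 10 libraries all counts were on 1 of the rows. The copy held 0 counts in libraries 2, 4, 5, 10, 12, 14 and 16, while the mitochondrial row held 0 in libraries 8, 9 and 11. In the other 7 libraries both rows held counts, such as 1217 on mt-Nd3 and 779 on Gm28438 in library 1. Libraries of 1 summed sample fell on both sides: library 11 counted only the copy, at 69.99 CPM, and libraries 10 and 12 only mt-Nd3, at 66.6 and 62.3 CPM. The sum of both rows varied less than the mitochondrial row alone in all 4 of these divided pairs. Over the 14 libraries other than 10 to 12, the coefficient of variation of CPM went from 117% to 9.85% for mt-Atp6, from 248% to 16.0% for mt-Co3, from 113% to 13.5% for mt-Nd4l and from 63.5% to 20.9% for mt-Nd3. How reads that match both rows were divided was not given in the sources used here.

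**Figure D2:**
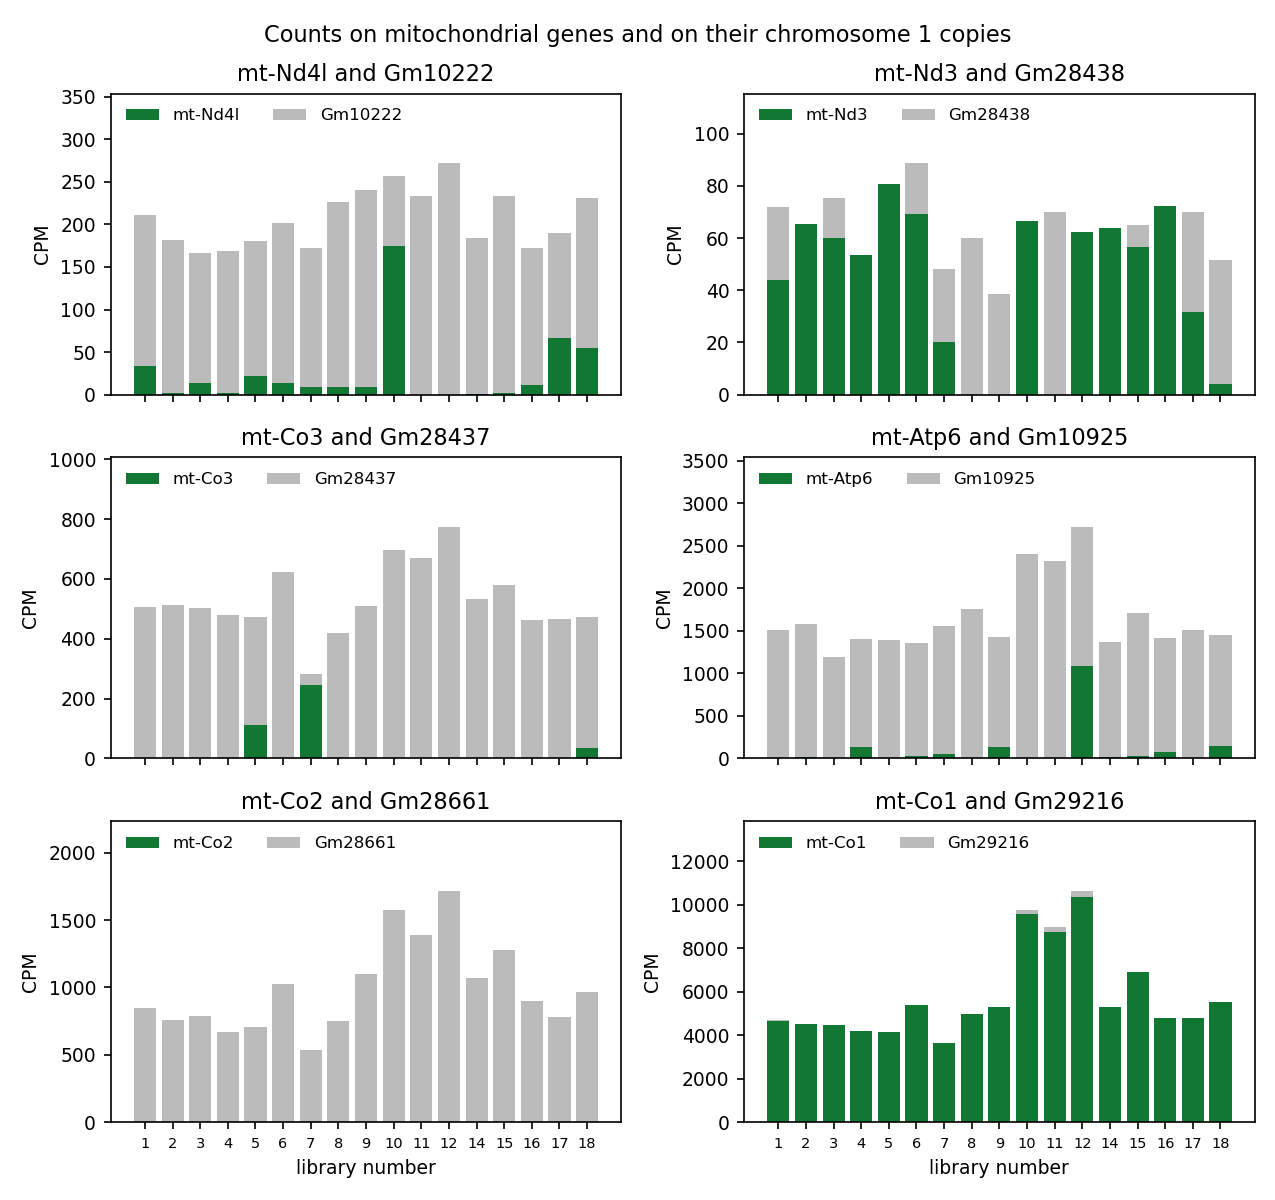
CPM on 6 mitochondrial genes (green) and on their chromosome 1 copies (grey), stacked for each of the 17 libraries. The green part changes from library to library in the pairs of mt-Nd4l, mt-Nd3, mt-Co3 and mt-Atp6 while the stacked height varies less, and mt-Co2 has no green part in any library.

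The remaining copy, Gm29216, matches the last 31.3% of mt-Co1 with the single substitution A1066T after 9 unmatched bases at its own 5′ end, and took 0.720% of the pair's counts. It held 182, 193 and 287 CPM in libraries 10, 11 and 12 and 0 to 34.9 CPM in the other 14, so the 3 libraries did not overlap with the rest. In library 12 it reached 2.70% of the pair, its highest portion.

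Transfer RNAs were almost absent from the counts. Of the 22 tRNA genes, 19 held 0 counts in all 17 libraries, and the other 3 held 5 counts together, all in library 5: 3 on mt-Tk, 1 on mt-Tv and 1 on mt-Tg. These genes carry the tRNAs for lysine, valine and glycine. A count of 0 allows a share of up to 7.76e-06% to 1.11e-05% of counts, depending on the library total, taken as 3 counts. The tRNA genes are 59 to 75 bases long, and the shortest and the longest are printed to show the size of target a read must fit.
mt-Ts2: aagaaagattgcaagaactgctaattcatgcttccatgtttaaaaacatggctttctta
mt-Tl1: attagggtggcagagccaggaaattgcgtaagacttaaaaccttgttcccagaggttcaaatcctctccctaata
Read length and any selection of fragment size were not given in the sources used here, and their part in the tRNA counts was not tested. None of the tRNA rows passed the expression filter. In an edgeR fit without it, the 3 rows with a count had log2 fold changes of 2.99 for mt-Tk and 1.75 for mt-Tv and mt-Tg, with unadjusted p of 0.24 and 0.37, values that rest on these 5 counts and on the prior count of the fit.

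Libraries 10 to 12, which form 1 summed Mt1ko sample, differed from the other 14 in most of the mitochondrial genes. The mean CPM was 4.71 times as high for mt-Rnr1 and 4.18 times as high for mt-Rnr2. With the copies' counts added, the 13 mRNAs had ratios of 1.03 to 2.42 with a median of 1.59. Of them 10 were above all other 14 libraries in each of the 3, where 1.04% of all 16666 tested genes were. The labels call these libraries technical replicates and the authors summed them into 1 sample, so the ratios describe that sample and were not tested.

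The mRNAs differed in how far these libraries lay above the rest. The ATP synthase subunit mt-Atp8 had the highest ratio, 2.42, with 112.5, 84.7 and 103.5 CPM in libraries 10, 11 and 12 and 31.0 to 51.7 CPM in the other 14. The complex I subunit mt-Nd6 followed at 2.26, with 177, 208 and 203 CPM against 61.8 to 122 CPM. The ratio of mt-Co1 was 1.95, with 9585, 8758 and 10350 CPM against 3634 to 6901 CPM. These 3 genes were above the other 14 libraries without overlap.

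At the low end stood 3 complex I subunits. For mt-Nd3 with Gm28438 the ratio was 1.03, and libraries 10, 11 and 12, at 66.6, 69.99 and 62.3 CPM, lay inside the range of the others, 38.4 to 88.8 CPM. The ratio of mt-Nd1 was 1.25, with 1220, 1111 and 1133 CPM against 765 to 1244 CPM, and that of mt-Nd4l with Gm10222 was 1.29, with 257, 233 and 272 CPM against 167 to 241 CPM. Both ranges overlapped. The other mRNAs had ratios of 1.41 for mt-Nd5, 1.47 for mt-Co3 with Gm28437, 1.51 for mt-Cytb, 1.59 for mt-Nd4, 1.66 for mt-Nd2, 1.68 for mt-Atp6 with Gm10925 and 1.79 for mt-Co2 with Gm28661.

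Because the rRNAs took up to 30.2% of the counts, the mRNAs were also scaled to the counts outside the 2 rRNAs. On this scale the ratios were 1.31 to 3.09 with a median of 2.03, and 12 of the 13 mRNAs, the exception being mt-Nd3 with its copy, were above all other libraries. The rRNA ratios became 6.00 and 5.33. Of the 14 mitochondrial rows that passed the expression filter as deposited, 9 were above all other libraries on the CPM scale, where 1.04% of the 16666 tested genes were, and 10 on the scale outside rRNA, where 2.3% were. None of the 14 was below all others on either scale, against 10.4% and 4.52% of all tested genes.

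**Figure D3:**
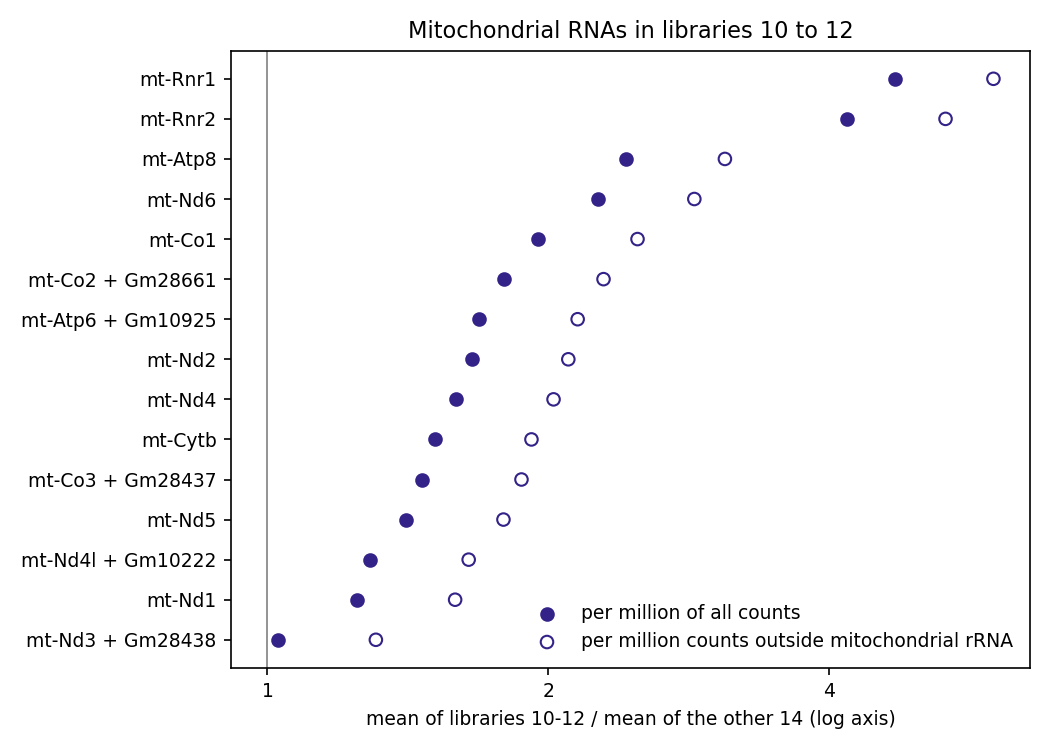
Mean of libraries 10 to 12 divided by the mean of the other 14 libraries for each rRNA and mRNA, on a log axis, scaled to all counts (filled) and to the counts outside the mitochondrial rRNAs (open). The rRNAs reach 4.71 and 4.18 on the filled scale, and the mRNAs lie between 1.03 and 2.42.

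Other measures moved with the mitochondrial genes in libraries 10 to 12. At least 1 count was seen on 11548 to 13174 genes in them and on 14823 to 17739 genes in the other 14, and the lowest of those were libraries 9 and 8 with 14823 and 15404. Their 14 mast cell and basophil markers summed to 2762 to 7048 CPM, against 7.19 to 2211 CPM in the others (median 268). Of these markers 5 were above all other libraries in all 3, where 1.04% of all tested genes were. Prss34, Mrgprb2 and Mcpt1 were at 0 in all libraries. The tissue is bulk marrow, so fewer cells of a type and less RNA per cell cannot be told apart.

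Sums of 2 further marker lists did not overlap with the other libraries, and in libraries 10 to 12 most of each sum came from 1 gene. The 11 stroma and endothelium markers summed to 50.6 to 116 CPM against 13.1 to 48.4, of which Pecam1, which platelets and leukocytes also express, made up 47.7 to 114 CPM against 5.22 to 44.9. No other gene of that list exceeded 2.93 CPM in libraries 10 to 12, and Col1a1, Cxcl12, Pdgfra, Pdgfrb, Kdr, Dcn, Cdh5 and Emcn were at 0 there. The 15 neutrophil markers summed to 121 to 193 CPM against 210 to 475, of which Mmp8 made up 107 to 174 CPM against 166 to 257, with overlap. Elane was at 0 to 1.76 CPM against a median of 38.3 in the other 14, Prtn3 at 1.92 to 11.1 against 33.7 and Lcn2 at 0 to 4.32 against 21.2. Ctsg, Cxcr2 and Ly6g were at 0 in libraries 10 to 12, with medians of 20.3, 3.40 and 0.663 CPM in the others. Of the 15, 0 were above all other libraries. Of all tested genes 1.04% were above all others and 10.4% below. The 17 monocyte and macrophage markers summed to 7319 to 8090 CPM against 7603 to 12390. Sums of the megakaryocyte, erythroid and T and NK cell lists also overlapped with the other libraries. Within the 14 megakaryocyte and platelet markers, genes differed in both directions. In libraries 10 to 12, 3 were above all others, where 1.04% of all tested genes were. They were Itga2b (122.59 to 211.58 CPM against 1.0738 to 65.085), Gp1ba (7.6557 to 37.845 against 0 to 4.9477) and Vwf (28.725 to 106.47 against 1.7029 to 22.688). Ppbp was at 0 in libraries 10 to 12 against 1.2738 to 26.277 CPM, where 10.4% of all tested genes were below all others. Pf4 was at 13.289 to 39.909 CPM against a median of 154.98, with overlap. The part of cell content, gene detection, RNA quality and any removal of rRNA during library preparation in the mitochondrial values was not tested.

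**Figure D4:**
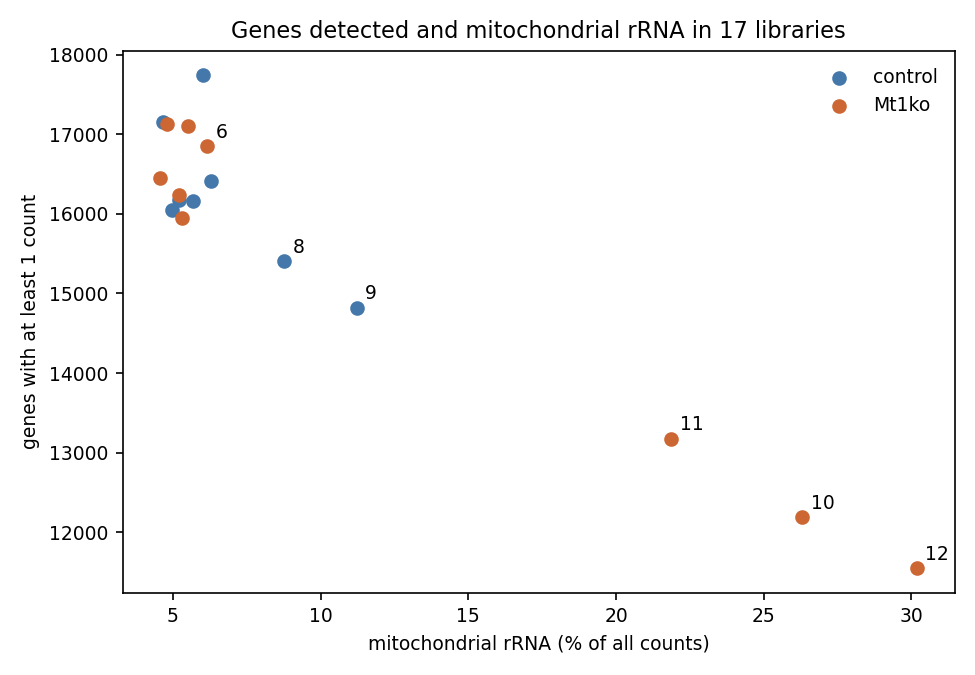
Genes with at least 1 count against the share of mitochondrial rRNA (% of all counts), with 1 point per library coloured by group and labelled with the library number for 6 libraries. Libraries 10 to 12 have 21.9% to 30.2% rRNA and at most 13174 genes, and control libraries 8 and 9 lie between them and the rest.

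Between Mt1ko and control samples, no class of mitochondrial RNA showed a difference larger than the spread between the sums. The share of the 2 rRNAs was 4.93%, 8.43% and 5.97% in the control samples 1-3, 7-9 and 14-15 and 5.23%, 26.0% and 5.35% in the Mt1ko samples 4-6, 10-12 and 16-18. Apart from the high sample 10-12, the Mt1ko values lay within the range of the controls. Mean shares were 6.45% ± 1.80 and 12.2% ± 11.9 (SD, n = 3 each), and the mean log2 share was 0.52 higher in Mt1ko (exact two-sided permutation test, p = 0.8). This test cannot go below 0.1 with 3 against 3 samples.

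The mRNAs took 1.04%, 1.09% and 1.31% of counts in the control samples and 1.06%, 1.90% and 1.13% in the Mt1ko samples, again with overlap. Mean shares were 1.15% ± 0.144 and 1.36% ± 0.468, a log2 difference of 0.20 (exact permutation test, p = 0.6). The rRNA to mRNA ratio was 4.73, 7.74 and 4.55 in control and 4.94, 13.6 and 4.73 in Mt1ko, a log2 difference of 0.31 (exact permutation test, p = 0.5). With the counts of the nuclear copies added, the log2 differences were 0.19 for the mRNA share and 0.32 for this ratio. The ratio of mt-Rnr2 to mt-Rnr1 averaged 2.54 ± 0.117 and 2.59 ± 0.248 (exact permutation test, p = 0.8). Over the 5 tests of this kind, the share of all 37 genes included, every Benjamini-Hochberg adjusted p was 0.8. Without sample 10-12 the log2 differences were -0.25 for the rRNA share, -0.06 for the mRNA share and -0.19 for their ratio.

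Gene by gene, edgeR's quasi-likelihood test called none of the mitochondrial rows. Of the 37 rows, 14 passed the expression filter (both rRNAs and 12 mRNAs), while mt-Co2 and the 22 tRNAs did not. None of the 14 passed an adjusted p of 0.05, where 0% of the 16666 tested genes did, Mt1 included. At an unadjusted p under 0.05 there were 2 of 14 (mt-Atp6 and mt-Nd4l), against 1.03% of all tested genes (171). DESeq2 called 1 gene and limma-voom 0, with 318 and 198 genes at an unadjusted p under 0.05, and the gene called was Mt1. The 14 fold changes had a median of 0.44 on the log2 scale, with 13 above 0, against a median of -0.01 over all tested genes. Without sample 10-12 the median was -0.04, with 4 above 0.

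Among the rows without chromosome 1 copies, the rRNAs had the largest fold changes. For mt-Rnr1 the control samples were at 13479, 24585 and 16989 CPM and the Mt1ko samples at 14015, 78618 and 14341 CPM, so that sample 10-12 was high and the other 2 lay within the control range. The log2 fold change was 1.19 with an SE of 0.73, and -0.32 without sample 10-12. For mt-Rnr2 the control samples were at 35861, 59723 and 42739 CPM and the Mt1ko samples at 38303, 181084 and 39205 CPM, with a log2 fold change of 1.13 (SE 0.67) that became -0.20 without sample 10-12. The adjusted p of both was 1 by edgeR.

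The mRNAs without a full-length copy gave smaller values with the same dependence on sample 10-12. The gene mt-Co1 was at 4546, 4572 and 6060 CPM in control and 4610, 9535 and 5039 CPM in Mt1ko, with a log2 fold change of 0.51 (SE 0.35), or -0.03 without sample 10-12. The levels of mt-Atp8 were 41.6, 39.1 and 45.3 CPM in control and 42.2, 99.7 and 39.7 CPM in Mt1ko, with a log2 fold change of 0.71 (SE 0.41), or 0.01 without that sample. For mt-Nd6 they were 76.2, 103.1 and 96.2 CPM in control and 74.8, 196 and 85.0 CPM in Mt1ko, with a log2 fold change of 0.56 (SE 0.41), or -0.16 without it. In all 3 genes sample 10-12 was high and the groups overlapped. The other 2 Mt1ko samples lay within the control range for mt-Co1 and mt-Atp8. For mt-Nd6 sample 16-18 did, and sample 4-6 was below all control samples.

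The complex I subunits mt-Nd1, mt-Nd2, mt-Nd4 and mt-Nd5 and mt-Cytb of complex III had log2 fold changes of 0.18 (SE 0.20), 0.32 (SE 0.30), 0.37 (SE 0.27), 0.30 (SE 0.24) and 0.30 (SE 0.26). Without sample 10-12 these 5 values lay between -0.14 and -0.004. All had overlapping groups. The 95% interval of mt-Nd1 without that sample ran from -0.35 to 0.23 and that of mt-Nd5 from -0.31 to 0.30.

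The rows with the largest fold changes were those divided with a copy. The row mt-Atp6 was at 9.19, 54.96 and 25.1 CPM in control and 53.1, 349 and 75.1 CPM in Mt1ko. Its fold change was 2.65 on the log2 scale (SE 0.91) with an unadjusted edgeR p of 0.020 and an adjusted p of 1. With Gm10925 added the control samples were at 1422, 1591 and 1530 CPM and the Mt1ko samples at 1384, 2476 and 1464 CPM. Only sample 10-12 was then outside the control range on the high side, and the fold change was 0.39 (SE 0.29). The value of 349 CPM came from library 12 alone, since libraries 10 and 11 had 0.

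The row mt-Nd4l held 15.4, 8.93 and 1.56 CPM in control and 12.9, 56.3 and 45.9 CPM in Mt1ko, and samples 10-12 and 16-18 were above all controls. Its log2 fold change was 2.31 (SE 0.83), with an unadjusted edgeR p of 0.025 and an adjusted p of 1. With Gm10222 added the samples were at 185, 210.1 and 207 CPM in control and 184, 253 and 199 CPM in Mt1ko, and the fold change was 0.23 (SE 0.20). The groups overlapped with and without the copy.

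The rows mt-Co3 and mt-Nd3 had log2 fold changes of -0.84 (SE 2.35) and 0.32 (SE 0.66) as deposited, and 0.38 (SE 0.25) and 0.28 (SE 0.18) with their copies. The control samples of mt-Co3 were at 0.063, 91.5 and 0.016 CPM, with the middle value from library 7, and the Mt1ko samples at 36.9, 0.021 and 12.1 CPM. With Gm28437 added they became 507, 393 and 557 CPM in control and 529, 713 and 468 CPM in Mt1ko. For mt-Co2 only the sum with Gm28661 could be compared, at 794, 769 and 1171 CPM in control and 811, 1556 and 881 CPM in Mt1ko, which gave 0.42 on the log2 scale (SE 0.34). With the copies merged, 15 mitochondrial genes were tested by edgeR, 0 were called, 0 had an unadjusted p under 0.05, all 15 fold changes were above 0 and their median was 0.38. Without sample 10-12 the merged fit gave 3 fold changes above 0 and 12 below, with a median of -0.05, and again 0 were called and 0 had an unadjusted p under 0.05.

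**Figure D5:**
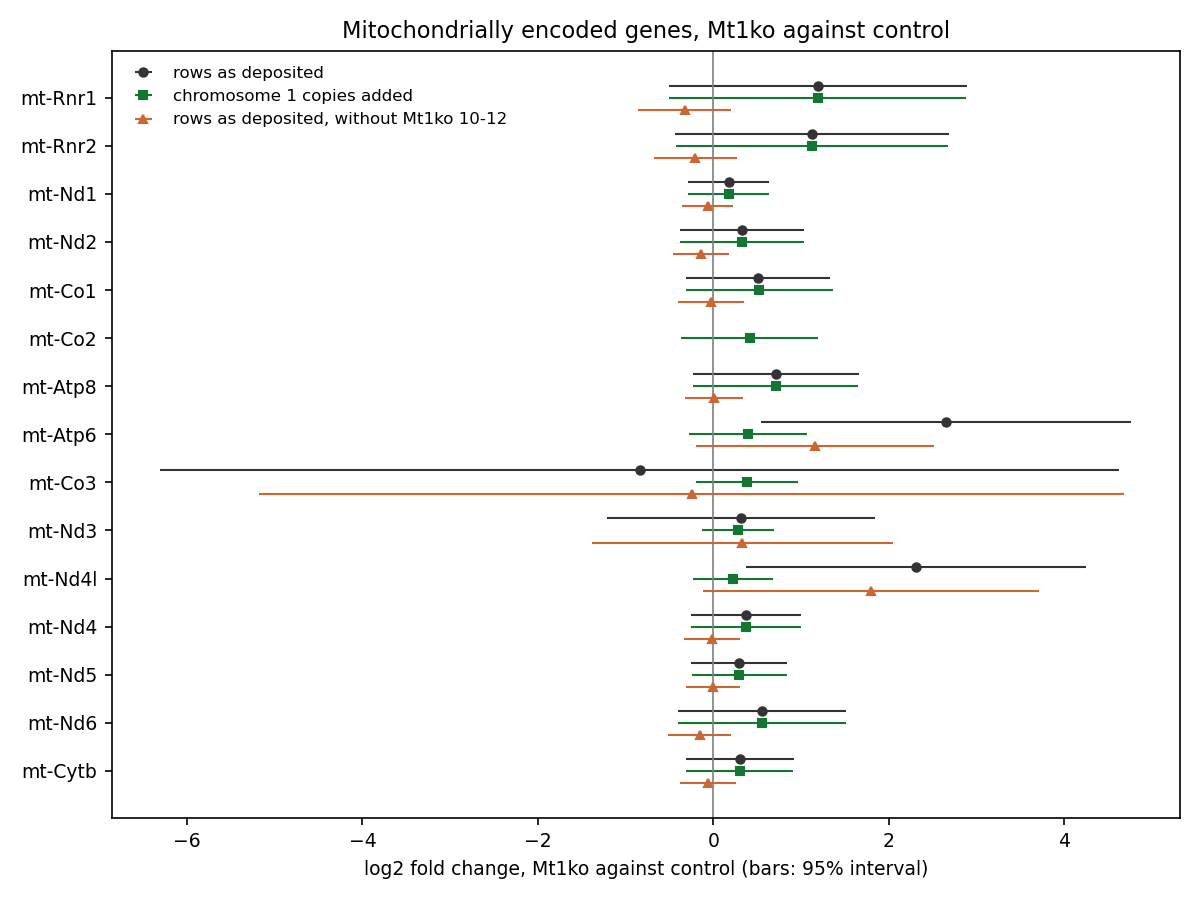
Log2 fold change of Mt1ko against control samples with its 95% interval for the 2 rRNAs and 13 mRNAs, from the rows as deposited (circles), with the chromosome 1 copies added (squares) and from the rows as deposited without sample 10-12 (triangles). The intervals of mt-Atp6, mt-Co3, mt-Nd3 and mt-Nd4l narrow when the copies are added, and the rRNAs move from 1.19 and 1.13 to -0.32 and -0.20 without that sample.

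No mitochondrial gene had groups that did not overlap on the CPM scale, where 7.81% of all tested genes did (1.32% with Mt1ko above and 6.49% with Mt1ko below control). After TMM scaling, which gave sample 10-12 a factor of 0.852 and the others 1.00 to 1.05, 1 of 14 did. It was the row mt-Atp6, where the control sums were at 8.92, 52.2 and 23.9 scaled CPM and Mt1ko sums at 53.0, 410 and 72.9, and its sum with Gm10925 overlapped.

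The nuclear genes that make and handle mitochondrial RNA were read from 4 lists, and edgeR called 0 genes in each. Of 21 genes of transcription and genome maintenance, 7 were higher and 14 lower in Mt1ko with a median log2 fold change of -0.22, and 0 had an unadjusted p under 0.05, against 1.03% of all tested genes. Without sample 10-12 the median was -0.06, again with 7 higher and 14 lower. There 3 genes had an unadjusted p under 0.05 (Tfam, Mterf1a and Mterf1b, named after their values were seen), against 425 of all 17772 genes tested, and 0 were called. Named by the smallest p were Twnk, the mitochondrial DNA helicase, at -0.80 (SE 0.38), Mterf4, which acts with Nsun4 on the ribosome, at 0.42 (SE 0.26), the transcription factor gene Tfb2m at -0.40 (SE 0.26) and Tfam, which packages the DNA and starts transcription, at 0.30 (SE 0.22). Tfb2m was at 10.5, 12.1 and 16.6 CPM in control and 10.1, 7.93 and 9.35 CPM in Mt1ko, without overlap, and Twnk, Mterf4 and Tfam overlapped. Without sample 10-12 these 4 fold changes were -0.68, 0.42, -0.38 and 0.44.

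Of 34 genes of RNA processing, modification and decay, 16 were higher and 18 lower (median -0.03, 0 at an unadjusted p under 0.05). The 4 with the smallest p were Fastk at 0.31 (SE 0.19), Hsd17b10, a subunit of the RNase P that cuts tRNA 5′ ends, at -0.59 (SE 0.36), the RNA helicase gene Supv3l1 at -0.52 (SE 0.32) and the rRNA methyltransferase gene Nsun4 at -0.55 (SE 0.35). Hsd17b10 was at 19.5, 20.04 and 18.7 CPM in control and 14.3, 5.15 and 17.2 CPM in Mt1ko, lowest in sample 10-12. Without that sample the median of the list was -0.07, and the 4 fold changes were 0.12 for Fastk, -0.26 for Hsd17b10, -0.28 for Supv3l1 and -0.37 for Nsun4.

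Aminoacyl-tRNA synthetase genes of the mitochondrion numbered 23, with 10 higher and 13 lower (median -0.01, 0 at an unadjusted p under 0.05). The smallest p belonged to Gatc at 0.42 (SE 0.25), Iars2 at -0.26 (SE 0.17), Hars2 at 0.32 (SE 0.24) and Qrsl1 at -0.82 (SE 0.63). Without sample 10-12 they were at 0.23, -0.12, 0.21 and -0.35, and the median of the list was -0.09.

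Of 86 mitochondrial ribosomal protein genes 81 were tested, with 37 higher and 44 lower (median -0.03) and 1 at an unadjusted p under 0.05, where 1.03% of all tested genes were. Without sample 10-12, 82 were tested, 46 were higher and 36 lower, the median was 0.03 and 0 had an unadjusted p under 0.05. The gene with an unadjusted p under 0.05 with all samples was Mrps7, at 20.5, 20.7 and 20.1 CPM in control and 24.4, 26.7 and 25.8 CPM in Mt1ko without overlap, with a log2 fold change of 0.46 (SE 0.17, unadjusted edgeR p 0.030, adjusted p 1). Mrps5 at 0.64 (SE 0.30), Mrpl45 at 0.29 (SE 0.15) and Mrpl1 at 0.34 (SE 0.20) followed, with overlapping groups. Without sample 10-12 Mrps7 was at 0.34, Mrps5 at 0.34, Mrpl45 at 0.30 and Mrpl1 at 0.24.

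In libraries 10 to 12 the medians of the nuclear lists were below 1 on the CPM scale, unlike that of the mitochondrial rows. Relative to the other 14 libraries, the median ratio was 0.733 for transcription and genome maintenance, 0.772 for RNA processing, 0.661 for the synthetases and 0.814 for the ribosomal proteins, beside 0.733 over all tested genes and 1.80 over the 14 mitochondrial rows. None of the 21, 34, 23 and 81 genes was above all other libraries, where 1.04% of all tested genes were, and 2, 7, 3 and 9 of them were below all, where 10.4% were. On the scale outside rRNA 2 ribosomal protein genes were above all others (2.3% of all tested genes), 1, 4, 2 and 4 genes were below all (4.52%), and the medians were 0.960, 0.998, 0.846 and 1.04, beside 0.930 over all genes and 2.29 over the mitochondrial rows. Within the mitochondrial ribosome, the median ratio of the protein genes was 0.814 where the 2 rRNAs had 4.71 and 4.18.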

How the data were processed

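The values are raw whole-number counts per gene, deposited by the authors for 17 libraries and for 6 sums of them; each sum equalled its libraries in every gene (0 differences). Per the labels' protocols, total RNA was isolated with the RNeasy Micro kit including a DNase digest, and libraries were made with Takara's v2-Pico version of the SMARTer stranded total RNA kit. Per the submitters' processing notes, Trimmomatic 0.35, RSEM 1.3.3 and the builds GRCm38 and mm10 were used. The aligner, the strand setting and the handling of reads with several matches were not given in the sources used here, and they bear on genes with nuclear copies.

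Of 56305 rows, 55227 matched the GENCODE vM21 annotation of GRCm38. Nuclear copies were rows whose transcript matched the mitochondrial transcripts at 95% identity or more over at least 50% of its length (BLAST 2.17.0). The sums (3 control, 3 Mt1ko) were compared in R 4.3.3 by edgeR 4.0.16 (TMM scaling, filterByExpr, quasi-likelihood F test, Benjamini-Hochberg adjustment over all 16666 tested genes, called under 0.05), tested first on simulated data. The SE of a fold change was its log2 value over the square root of F. Shares and ratios were compared by exact permutation of mean log2 values (scipy 1.17.1). No 2 libraries were alike, with a chi-square per gene of at least 32.4 between any pair. Library 13 of the numbering was not analysed here.

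All rRNA and mRNA members were named, with the tRNA of highest count, up to 4 genes per list with the smallest p, up to 8 nuclear copies, and Mt1; the other tRNAs with a count and the marker genes were named after their values were seen. The members and lists were chosen with earlier results of these data known. Alternatives were RLE scaling, 2 other filters, DESeq2 1.42.0, limma-voom (limma 3.58.1), the 17 libraries singly, mt- rows left out of the scaling, copies added, shares outside rRNA, ratios of medians and leaving out each sum. Merging the copies in the fit, with and without Mt1ko 10-12, and leaving out library 6 were chosen after seeing the data. Intervals of shares cover counting error only, since PCR copies and separate molecules are counted alike.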

Additional observations from a re-analysis of the deposited data

Results flagged for a closer look

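In 64 groups of library values, each a member or copy in the control or in the Mt1ko libraries, 9 had a library far from all others of its group, where chance gives about 1 in 20 groups. That rate is for independent groups. A row and its copy share reads and are not independent, and the number was not tested against it. Of these 9, 8 lay on rows that share sequence with a chromosome 1 copy. Control library 7 had 245.88 CPM on mt-Co3, where the next highest control library had 0.0903, and 35.984 CPM on its copy Gm28437, where the next lowest had 420.26. Control library 9 had 134.32 CPM on mt-Atp6 (next 47.8), and control library 1 had 33.756 CPM on mt-Nd4l (next 13.5) and 34.875 CPM on Gm29216 (next 14.0). Among the Mt1ko libraries, library 12 had 1087.6 CPM on mt-Atp6 (next 147), library 5 had 112.51 CPM on mt-Co3 (next 34.5) and library 10 had 174.98 CPM on mt-Nd4l (next 66.1). The remaining one was mt-Nd1 in control library 15, at 1243.9 CPM, where the next control library had 984.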

How the results depend on the processing

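The number of genes called was 0 in the reported fit and 1 (Mt1) with DESeq2, with the 17 libraries entered singly and without library 6, and 0 when any sum was left out (lowest 0, highest 0); no mitochondrial gene was called in any setting. Leaving out each sum in turn moved the log2 difference between -0.22 and 0.85 for the share of all 37 genes, -0.25 and 0.91 for rRNA, -0.062 and 0.36 for mRNA, -0.19 and 0.58 for the rRNA to mRNA ratio, and -0.01 and 0.11 for the mt-Rnr2 to mt-Rnr1 ratio. The first 4 were below 0 only without Mt1ko 10-12. The last was below 0 without Mt1ko 4-6 (-0.014), control 7-9 (-0.0030) or Mt1ko 16-18 (-0.014). Without Mt1ko 10-12 the log2 fold changes also turned in mt-Rnr1 (-0.32), mt-Rnr2 (-0.20), mt-Nd1 (-0.060), mt-Nd2 (-0.14), mt-Co1 (-0.026), mt-Nd4 (-0.012), mt-Nd5 (-0.0037), mt-Nd6 (-0.16) and mt-Cytb (-0.060). Without control 7-9, mt-Nd3 turned to -0.18 and mt-Co3 to 8.57, and mt-Co3 also turned with limma-voom (2.25) and with copies merged (0.38). With copies merged and Mt1ko 10-12 left out, mt-Co3 was at 0.079, mt-Atp6 turned to -0.046, mt-Nd4l to -0.022 and mt-Co1 to -0.027, and the other genes that turned without Mt1ko 10-12 turned to the same rounded values as given for it. The ratio of libraries 10 to 12 to the others in mRNA share was 1.71, and 2.18 outside rRNA. The cause of these changes was not tested. The other 129 values of single genes and library ratios from alternatives other than leaving out 1 sum alone kept their direction and their side of the threshold, or moved by less than the spread. No paired analysis was possible because the groups share no replicate number. The part of depth in the tRNA counts was not tested. The divided rows at 0 to 10 counts lie beside copies that hold the counts of the pair.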

Other observations

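Besides the chromosome 1 block, 4 nuclear rows matched mitochondrial transcripts at 95% identity or more: Gm13339, Gm13340 and Gm13341 on chromosome 2, which match mt-Nd2, mt-Co1 and mt-Co2, and Gm4076 on chromosome 13, which matches mt-Nd5. Their identities were 96.7%, 97.6%, 95.9% and 95.2%. Gm4076 held 0 counts in all 17 libraries. The highest counts of the other 3 were 19 for Gm13339 in library 8, 42 for Gm13340 in library 10 and 22 for Gm13341 in library 12. These copies have 16 to 45 mismatches to the mitochondrial genes, and Gm13341 and Gm4076 have 1 gap each besides. The rows on chromosome 1 have 0 or 1 mismatches and held up to 77500 counts (Gm10925 in library 11).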
